A study of Rattus norvegicus with 16 samples.

Results

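The voltage-gated sodium channel subunits measured in dorsal CA1 of young rats were taken as every isoform whose gene symbol was Scn1a, Scn2a, Scn3a, Scn8a, Scn2b, Scn3b or Scn4b. These were 11 of the 21698 isoforms in the deposited table, and 7 of its 16579 gene symbols; all 11 were annotated as protein coding. RNA sequencing had been done on 8 kainate and 8 control libraries from male Sprague-Dawley rats. On postnatal day 7 the kainate rats were given a convulsant subcutaneous dose, 2 mg/kg, of this agonist of glutamate receptors, and all of them seized. Controls received saline on that day, and both groups were killed at postnatal day 14, 7 days later. Brains of both groups were cut into parasagittal slices 400 µm thick, CA3 was cut away, the slices recovered for 60 min in artificial cerebrospinal fluid with cortex and dentate gyrus attached, and CA1 was then isolated for RNA. Every library therefore comes from slices kept alive in vitro. In such bulk samples a change in the number of cells of a type and a change in RNA per cell cannot be told apart.

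Voltage-gated sodium channels carry the inward current of the rising phase of the action potential. A channel is built around a single large alpha subunit, which forms the pore and its voltage sensors, and smaller beta subunits, which have a single membrane span and an immunoglobulin-like domain and tune gating, trafficking and adhesion. In the brain the alpha subunits are encoded mainly by Scn1a, Scn2a, Scn3a and Scn8a, and human variants in these genes cause epilepsies of infancy and childhood. During postnatal development of rodent axons, the Scn8a channel takes over from the Scn2a channel at the axon initial segment and the nodes of Ranvier, while Scn3a is most abundant before and around birth.

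The deposited values are on a log2 scale with a floor that differs between isoforms. Differences of weak isoforms may be compressed on it, which was not measured. All values and differences below are on that scale unless another is named. Read totals per library are unknown from these values. No transcript length was at hand, so levels are not ranked between genes. Of 8 CA1 pyramidal markers 7 were measured, and Wfs1 and Fibcd1, which mark dorsal CA1, had mean normalized counts of 36329 and 24598 in the authors' deposited table. The summed level of the 7 CA1 markers ran from 16.48 to 16.68 in kainate and from 16.46 to 16.73 in control libraries. Markers of CA3, dentate granule cells, cortex and glia were measured in all libraries too. The libraries numbered 1 to 4 stood apart from those numbered 5 to 8 in both groups, with 38.8% of all isoforms past the threshold between the sets. What the sets are is not stated in the labels, and results are therefore also given within each. Separate animals are implied by the numbering of the titles alone, and p-values measure the spread between these libraries.

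Scn2b and Scn4b, which encode the beta subunits that bind the alpha subunit through a disulfide bond, are neighbours on rat chromosome 8, and their promoters are printed because these 2 genes had nearly the same difference between the groups. The windows are the 250 bases before the annotated start in RefSeq for GRCr8, on the plus strand, chr8:54322133-54322382 for Scn2b and chr8:54343623-54343872 for Scn4b, with each CG dinucleotide in capitals.
Scn2b: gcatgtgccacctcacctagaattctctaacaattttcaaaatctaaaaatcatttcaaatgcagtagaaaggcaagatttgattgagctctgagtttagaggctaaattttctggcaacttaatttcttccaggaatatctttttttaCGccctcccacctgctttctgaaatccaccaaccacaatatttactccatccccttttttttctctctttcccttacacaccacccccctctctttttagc
Scn4b: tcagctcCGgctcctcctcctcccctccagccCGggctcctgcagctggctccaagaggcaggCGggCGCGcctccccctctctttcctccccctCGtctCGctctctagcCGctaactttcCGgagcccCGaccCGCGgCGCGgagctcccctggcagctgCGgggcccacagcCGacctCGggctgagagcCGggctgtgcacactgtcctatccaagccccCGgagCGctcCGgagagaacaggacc
The Scn2b window had a GC content of 38.8% and 1 CG, and the Scn4b window 71.6% and 21 CG. Over 33469 rat promoters of the same length the median was 51.2% with 5 CG. These neighbours thus lie on opposite sides of the typical promoter in base composition. Entries matched 5 of the 7 genes, and 8 short motifs were searched on both strands. They were the GC box GGGCGG, the TATA box TATAAA, the cyclic AMP response element TGACGTCA, the left part of the RE1 silencer element TTCAGCACC, the E-box CATGTG, the AP-1 site TGACTCA, the CCAAT box CCAAT and an A-rich core TATTTATA; of these, the TATA box and the A-rich core can overlap. CATGTG, found in 12.1% of all promoters, was in the Scn2b window. GGGCGG, found in 30.5%, was in the Scn8a window. The other motifs, with shares of 0.305% to 34.0% of all promoters, were in none of the 5 windows. Which windows to print was decided after these matches and the values were known.

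At 7 days after kainate no sodium channel isoform differed from control past the threshold, and every one of the 11 had a higher mean in the kainate group. The differences ran from 0.016 for a Scn1a isoform to 0.27 for a Scn2a isoform, with a median of 0.079 against -0.00015 over all isoforms. Of all isoforms, 49.9% had a higher mean after kainate, as had 50.2% of those with at least 500 mean normalized counts. The share moved with gene length, in 10 bins of gene totals by gene span. It was 66.1% and 72.7% in the bins that hold the alpha subunit genes. In those of Scn2b, Scn4b and Scn3b it was 33.9%, 38.5% and 41.5%. After the libraries were set to a common median or quantile normalized, 11 of 11 means were still higher. The count was 9 of 11 within replicates 1 to 4 and 9 of 11 within replicates 5 to 8. By limma with Benjamini-Hochberg adjustment over all isoforms, 0 of 11 were called and the adjusted p was 1.00 for each, in a table where 0% of isoforms were called. At an unadjusted p under 0.05 limma had 325 isoforms in the table and no sodium channel isoform; 0.654% of all isoforms had such a p and were higher after kainate. With the replicate number as a block it had 1330. Those higher after kainate then made up 4.03% of all isoforms and included 2 of the 11, the Scn2b isoform and Scn8a ENSRNOT00000008160. No isoform was called with the block either. With a term for the sets of replicates 1 to 4 and 5 to 8 in place of the block, 1 of the 11 had such a p. So had 1044 of all isoforms, in either direction. In the authors' deposited table, the ratio of kainate to control ran from 1.01 to 1.11 for the 11, their adjusted p from 0.592 to 0.982, where 0.042% of isoforms were called. Of the sodium channel isoforms, 3 of 11 had an unadjusted p under 0.05 with a higher level, against 3.9% of all isoforms.

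**Figure D1:**
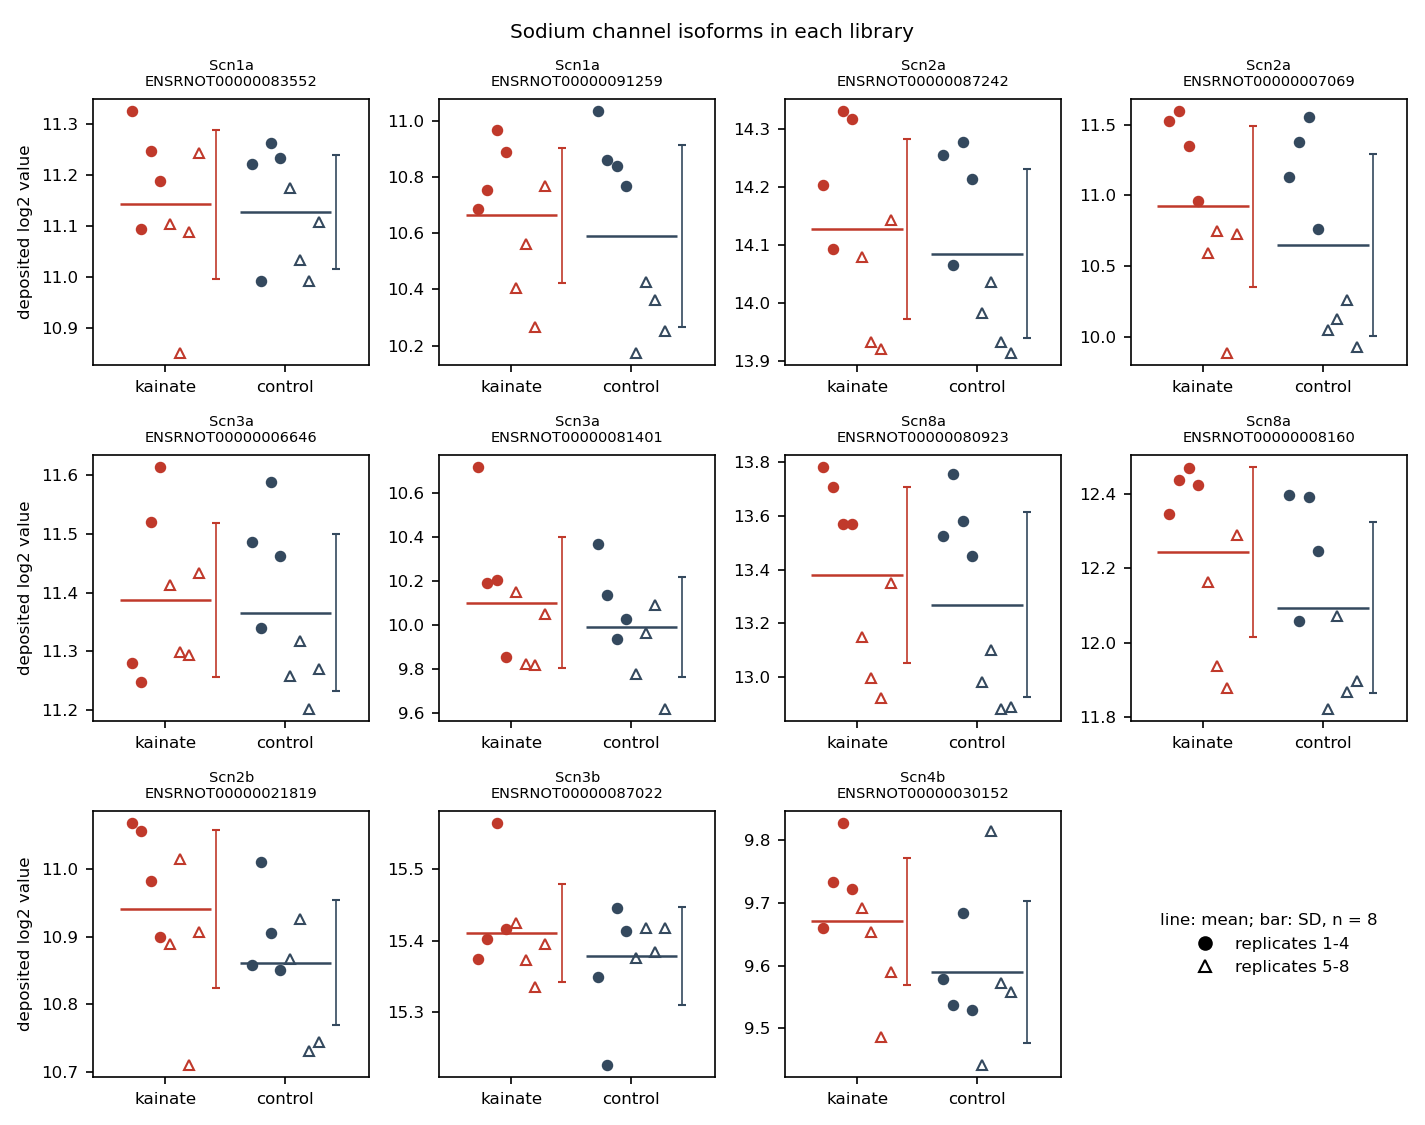
Deposited log2 value (vertical axis, scaled for each panel) of the 11 sodium channel isoforms in the 8 kainate (red) and 8 control (blue) libraries; filled circles are replicates 1 to 4, open triangles replicates 5 to 8, the line is the group mean and the bar its SD. The groups overlap in every panel, and the circles lie above the triangles in both groups for Scn2a ENSRNOT00000007069 and Scn8a ENSRNOT00000080923.

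Scn8a encodes the alpha subunit that dominates the mature axon initial segment and node, and sustains persistent and resurgent current. Its more abundant isoform, ENSRNOT00000080923, ran from 12.92 to 13.78 with a median of 13.46 in the kainate libraries and 12.88 to 13.75 with a median of 13.27 in the controls. Its other isoform, ENSRNOT00000008160, ran from 11.88 to 12.47 with a median of 12.32 in the kainate libraries and 11.82 to 12.40 with a median of 12.07 in the controls. Both isoforms overlapped between the groups over nearly their whole range, and in each group replicates 1 to 4 of the first isoform were the 4 highest libraries. The differences were 0.11 ± 0.16 (SE, n = 8 per group) and 0.15 ± 0.11. Summed over both isoforms, the Scn8a total was 13.92 ± 0.29 (SD, n = 8) after kainate and 13.80 ± 0.30 in controls. Its difference of 0.12 ± 0.13 (SE) was the largest of the 7 totals and had a limma adjusted p of 1.00. The difference was 0.10 within replicates 1 to 4 and 0.15 within replicates 5 to 8. With the replicate number as a block, its SE fell to 0.050, with an unadjusted limma p of 0.0305 and an adjusted p of 0.751.

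Scn2a encodes the alpha subunit of immature initial segments and unmyelinated axons of excitatory neurons. Its abundant isoform ENSRNOT00000087242 ran from 13.92 to 14.33 with a median of 14.12 in the kainate libraries and 13.91 to 14.28 with a median of 14.05 in the controls. The less abundant ENSRNOT00000007069 ran from 9.89 to 11.60 with a median of 10.85 in the kainate libraries and 9.93 to 11.56 with a median of 10.51 in the controls, the widest spread of the 11 isoforms, with an SD of 0.57 and 0.64. The highest and lowest libraries of both groups nearly coincided, so the groups overlapped fully. This isoform had the largest difference of the 11, 0.27 ± 0.29 (SE, n = 8 per group), about as large as its error. That error is from the fit without a block, so it includes the difference of 0.99 between the replicate sets. No alternative limma fit called this isoform for kainate, with a smallest adjusted p of 0.767. Its kainate difference was 0.15 within replicates 1 to 4 and 0.39 within replicates 5 to 8. With single libraries left out it ran from 0.17, without control replicate 8, to 0.42, without kainate replicate 7. In the authors' deposited table its log2 fold change was 0.14 ± 0.067, with p = 0.038 and adjusted p = 0.703. The abundant isoform differed by 0.043 ± 0.072, and the Scn2a total by 0.063 ± 0.083, with a limma adjusted p of 1.00.

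Scn1a encodes the alpha subunit on which fast-spiking interneurons depend most; loss of a single copy causes Dravet syndrome in people. Isoform ENSRNOT00000083552 ran from 10.85 to 11.33 with a median of 11.15 in the kainate libraries and 10.99 to 11.26 with a median of 11.14 in the controls. Isoform ENSRNOT00000091259 ran from 10.27 to 10.97 with a median of 10.72 in the kainate libraries and 10.17 to 11.03 with a median of 10.60 in the controls. The groups overlapped over most of their range in both. The differences were 0.016 ± 0.063 and 0.073 ± 0.13 (SE, n = 8 per group), and the total differed by 0.036 ± 0.075. The sign differed between the sets: the second isoform differed by -0.051 within replicates 1 to 4 and 0.20 within replicates 5 to 8, and the total by -0.0020 and 0.074. The first isoform turned negative when kainate replicate 1, control replicate 2 or control replicate 7 was left out. The second was 0.013 without control replicate 5 and 0.14 without control replicate 1. Among 10 interneuron markers, 5 had a higher and 5 a lower mean after kainate, with a median difference of 0.0026. Pvalb, which marks fast-spiking cells and had the smallest limma p of the 10, differed by -0.12 ± 0.049 (SE). It was not called by limma, with an adjusted p of 1.00, and the part of interneuron number in the Scn1a values was not tested.

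Scn3a encodes the alpha subunit of the fetal and neonatal brain, which declines after birth. Isoform ENSRNOT00000006646 ran from 11.25 to 11.61 with a median of 11.36 in the kainate libraries and 11.20 to 11.59 with a median of 11.33 in the controls. Isoform ENSRNOT00000081401 ran from 9.82 to 10.72 with a median of 10.10 in the kainate libraries and 9.62 to 10.37 with a median of 10.00 in the controls, and its highest value was kainate replicate 1. The groups overlapped in both. The differences were 0.022 ± 0.063 and 0.11 ± 0.12 (SE, n = 8 per group), and the total differed by 0.053 ± 0.060. Within replicates 1 to 4 the first isoform differed by -0.054 and within replicates 5 to 8 by 0.10. Its difference also turned negative without kainate replicate 4 or control replicate 7. The second isoform differed by 0.024 without kainate replicate 1 and by 0.17 without control replicate 1.

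Each beta subunit had 1 isoform in the table. Scn2b, whose product promotes channel density at the surface, ran from 10.71 to 11.07 with a median of 10.94 in the kainate libraries and 10.73 to 11.01 with a median of 10.86 in the controls. Kainate libraries reached higher, and the lowest library of all was kainate replicate 7. Its difference was 0.079 ± 0.052 (SE, n = 8 per group), 0.10 within replicates 1 to 4 and 0.063 within replicates 5 to 8. With the replicate number as a block the SE of its total was 0.029, with an unadjusted limma p of 0.0179 and an adjusted p of 0.751. With the block 2 of the 7 totals, Scn8a and Scn2b, had an unadjusted p under 0.05, against 4.06% of all totals in that direction. Without it none had, against 0.464%. With a term for the sets of replicates 1 to 4 and 5 to 8 instead, which assumes no pairing, 1 of the 7 had such a p. So had 843 of all 16579 totals, in either direction. In the authors' deposited table Scn2b had the lowest p of the 11, 0.0125, which ranked 360 among all isoforms and had an adjusted p of 0.592.

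Scn4b, whose cytoplasmic tail acts as the open-channel blocker behind resurgent current, ran from 9.49 to 9.83 with a median of 9.68 in the kainate libraries and 9.44 to 9.82 with a median of 9.57 in the controls. The highest control, replicate 6, lay near the highest kainate library, while 6 of the other 7 controls lay below the kainate median. Its difference was 0.081 ± 0.053 (SE), 0.15 within replicates 1 to 4 and 0.0089 within replicates 5 to 8. Scn3b, whose product binds the alpha subunit without a disulfide bond and is prominent in the hippocampus, ran from 15.34 to 15.56 with a median of 15.40 in the kainate libraries and 15.23 to 15.45 with a median of 15.40 in the controls. Its spread was the smallest of the 11 isoforms in controls, and the groups overlapped. Its difference was 0.032 ± 0.037, 0.081 within replicates 1 to 4 and -0.017 within replicates 5 to 8. The limma adjusted p was 1.00 for each beta total.

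**Figure D2:**
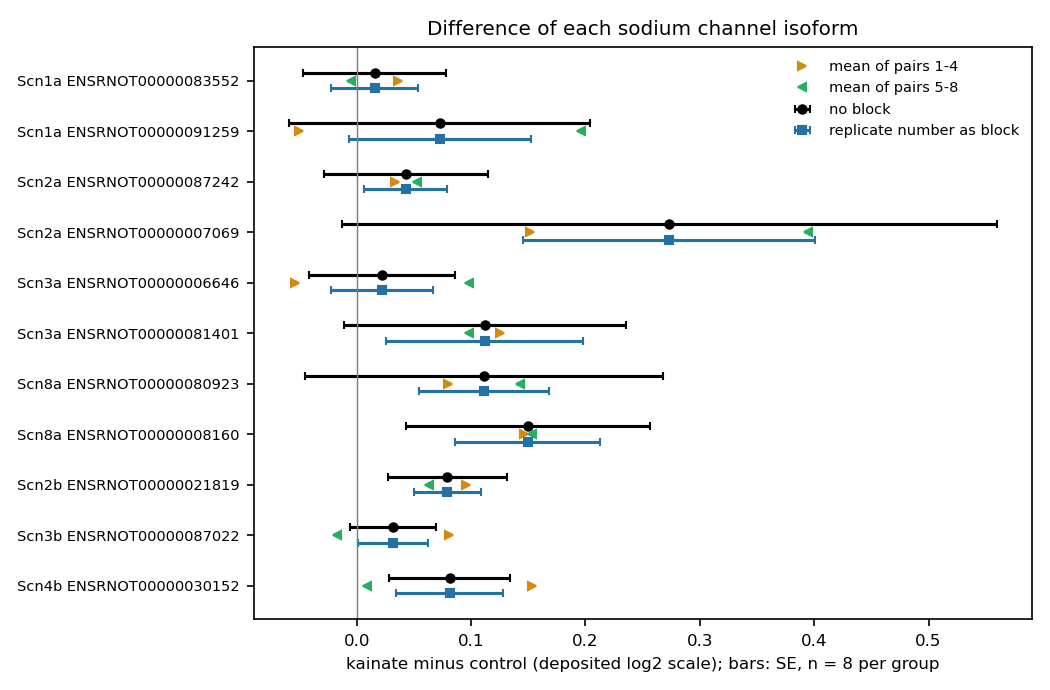
Difference of kainate minus control on the deposited log2 scale (horizontal axis) for the 11 isoforms, without a block (black circles) and with the replicate number as a block (blue squares); bars are the SE with 8 libraries in each group, and triangles are the means within replicates 1 to 4 and 5 to 8. All 11 circles lie right of 0, and a set mean lies left of 0 for both Scn1a isoforms, for Scn3a ENSRNOT00000006646 and for Scn3b.

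Same-numbered kainate and control libraries deviated together from their group means, and the differences were also read pair by pair. Such libraries also share a replicate set, and libraries of different numbers were not compared. Whether the number pairs animals is therefore not known. Scn8a and Scn2b totals were higher after kainate in 7 of 8 pairs, Scn1a, Scn2a and Scn4b totals in 6, Scn3b in 5 and Scn3a in 4. In all, 5 of 7 totals were higher in at least 6 pairs, against 17.1% of all gene totals. Of the isoforms 4 of 11 reached 6 pairs, against 17.7% of all isoforms. The pairs were unlike each other. In pair 8 the 4 alpha subunit totals had their largest differences, 0.23 for Scn3a, 0.27 for Scn2a, 0.28 for Scn1a and 0.44 for Scn8a. In pair 6 all totals but that of Scn2b were lower after kainate, down to -0.16 for Scn4b, and 5 of 7 were lower in pair 7. Pairs 3, 4 and 5 had all 7 totals higher. Without both libraries of replicate 8, the Scn8a total differed by 0.076, the Scn2a total by 0.034, the Scn3a total by 0.027 and the Scn1a total by 0.00078.

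**Figure D3:**
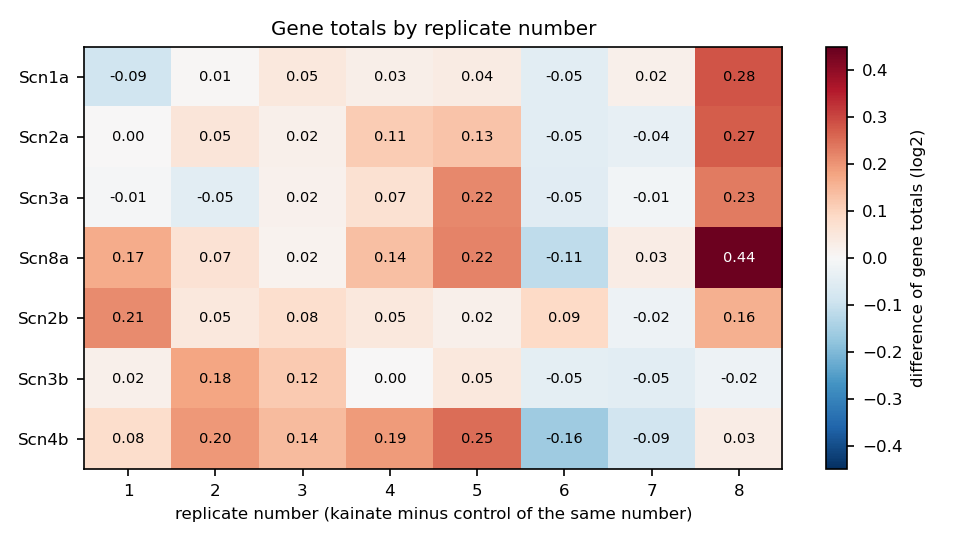
Difference of each sodium channel gene total (rows) between the kainate and control library of the same replicate number (columns), on the log2 scale, with red for higher and blue for lower after kainate. Columns 3, 4 and 5 hold no negative difference, column 6 is negative in every row but Scn2b, and column 8 holds the largest values of the 4 alpha subunits.

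Sodium channel levels also differed between the sets of replicates, by more than between the treatment groups for 9 of the 11 isoforms. How many of all isoforms have this order was not counted. Over the whole table, the size of an isoform's difference, regardless of sign, had a median of 0.072 for the sets and 0.023 for kainate. A larger difference between the sets is therefore not particular to sodium channels. Differences between the sets were common in the table, where limma called 38.8% of all isoforms between the sets and 0% between the groups. This split of the libraries was known from earlier results of these data, is no group of the study, and its values are a description. All 11 isoforms had a higher mean in replicates 1 to 4 than in 5 to 8, by 0.0085 for Scn3b up to 0.99 for Scn2a ENSRNOT00000007069. The share of all isoforms with a higher mean in replicates 1 to 4 was not counted, so this count has no background. Of the 8426 isoforms called between the sets, 4282 were higher in replicates 1 to 4. Over gene totals the median of this difference was -0.076 in the shortest and 0.078 in the longest of 10 bins of gene span. Past the threshold by limma were 5 of 11, all of them alpha subunit isoforms, where 19.7% of all isoforms were called higher in replicates 1 to 4. They were Scn2a ENSRNOT00000007069 at 0.99 ± 0.14 (SE), Scn8a ENSRNOT00000080923 at 0.58 ± 0.062, Scn1a ENSRNOT00000091259 at 0.45 ± 0.073, Scn8a ENSRNOT00000008160 at 0.36 ± 0.062 and Scn2a ENSRNOT00000087242 at 0.23 ± 0.045. The sets did not overlap for 2 isoforms, both higher in replicates 1 to 4, as for 5.03% of all isoforms in that direction. For Scn8a ENSRNOT00000080923 the lowest of replicates 1 to 4 was 13.45 and the highest of 5 to 8 was 13.35. For Scn2a ENSRNOT00000007069 these values were 10.76 and 10.75.

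Among gene totals the 4 alpha subunits were called and the 3 beta subunits were not, where 19.2% of all totals were called higher in replicates 1 to 4 and 42.5% in either direction. The Scn8a total was higher in replicates 1 to 4 by 0.52 ± 0.052 (SE), Scn2a by 0.30 ± 0.041, Scn1a by 0.25 ± 0.043 and Scn3a by 0.18 ± 0.040. The beta subunit totals differed by 0.11 ± 0.044 for Scn2b, 0.058 ± 0.050 for Scn4b and 0.0085 ± 0.036 for Scn3b. The difference between the sets also moved with gene span over all genes. Within its own span bin, that of Scn8a was at percentile 98.3, Scn2a at 93.3, Scn1a at 89.0 and Scn3a at 79.1. Scn2b was at percentile 95.8 of its bin, Scn4b at 88.4 and Scn3b at 69.0. The alpha and beta genes thus lay in overlapping ranges when set against genes of like span. Whether alpha and beta subunits differ in this was not tested. The kainate difference itself was not shown to differ between the sets: the limma interaction had an adjusted p of 1.00 for all 11 isoforms and called 0% of the table, with 412 isoforms at an unadjusted p under 0.05.

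The 4 alpha subunit genes each had a pair of isoforms, and the mix of the pair was read as the share of the gene's summed linear value. Scn1a ENSRNOT00000091259 made up 41.8% ± 3.56 after kainate and 40.9% ± 5.00 in controls (SD, n = 8). Scn2a ENSRNOT00000007069 made up 10.1% ± 3.02 after kainate and 8.86% ± 3.08 in controls. Scn3a ENSRNOT00000081401 made up 29.3% ± 5.27 after kainate and 27.9% ± 3.03 in controls, and Scn8a ENSRNOT00000008160 31.3% ± 2.15 after kainate and 30.8% ± 3.17 in controls. Each mean differed between the groups by less than the SD. In limma's test of isoform usage the adjusted p was 1.00 for all 4 genes, and 0 of 3761 genes with several isoforms were called. At an unadjusted p under 0.05 there were 90. Between the sets of replicates, a comparison added after the values were seen, 40.7% of such genes were called. The Scn2a share was 11.7% in replicates 1 to 4 and 7.26% in 5 to 8, with a limma usage adjusted p of 0.000275. The Scn1a share was 44.1% and 38.6%, with a limma adjusted p of 0.00795, which was 0.0501 without both libraries of replicate 5. The Scn8a share was 29.4% and 32.7%, with a limma adjusted p of 0.0461. That call was lost without kainate replicate 1, 2, 5 or 6 or control replicate 2, 6, 7 or 8, each left out alone, with limma adjusted p between 0.0526 and 0.134. For Scn3a the limma adjusted p was 0.401. How reads were split between isoforms of a gene depends on the authors' estimation.

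**Figure D4:**
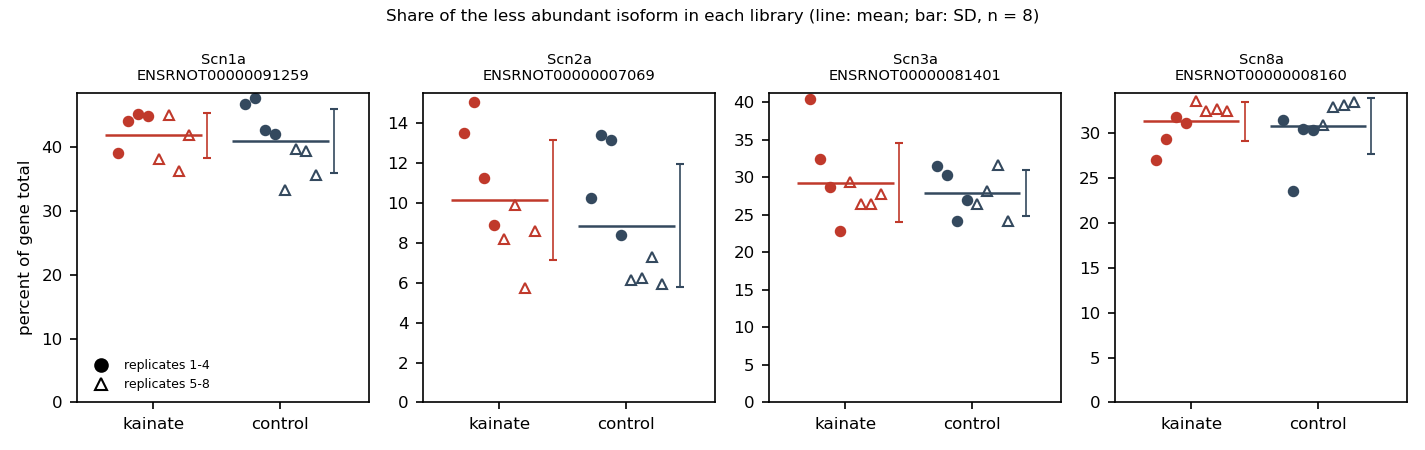
Share of the gene total, in percent (vertical axis from 0), of the less abundant isoform of Scn1a, Scn2a, Scn3a and Scn8a in each library; filled circles are replicates 1 to 4, open triangles replicates 5 to 8, lines are group means and bars the SD. Kainate and control overlap in all 4 panels, and the control replicate 2 library lies lowest for Scn8a.

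The alpha subunit genes are long and the beta subunit genes short, and differences in this table moved with gene length. In RefSeq's GRCr8 annotation Scn8a spans 174 kb, Scn2a 135 kb, Scn1a 119 kb and Scn3a 112 kb, whereas Scn3b spans 22.5 kb, Scn4b 15.2 kb and Scn2b 12.1 kb. Over all genes, the median difference of kainate minus control ran from -0.015 in the shortest to 0.026 in the longest of 10 bins with equal numbers of genes. The median difference of replicates 1 to 4 minus 5 to 8 ran from -0.076 to 0.078. Within its own bin of gene span, the kainate difference of Scn8a was at percentile 95.5, Scn2a at 85.4, Scn3a at 81.0 and Scn1a at 69.2. Scn4b was at percentile 98.7 of its bin, Scn2b at 98.6 and Scn3b at 88.6. With the trend on gene span removed in each library, a step chosen after the data were seen, the kainate difference was 0.10 for Scn8a, 0.046 for Scn2a, 0.037 for Scn3a and 0.020 for Scn1a. It was 0.090 for Scn2b, 0.090 for Scn4b and 0.037 for Scn3b. The totals of all 7 genes thus stayed above 0, with a value for Scn1a lowered by over 1.5 times, and none was called by limma.

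**Figure D5:**
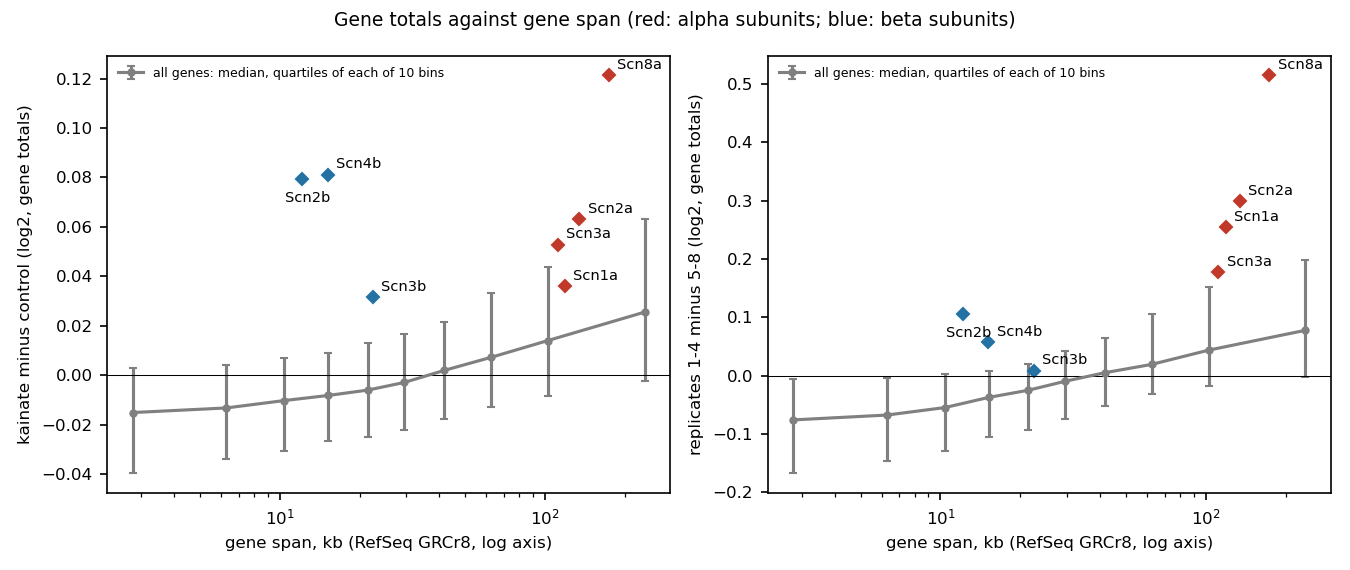
Difference of gene totals on the log2 scale against gene span in kb (log axis), for kainate minus control (left) and replicates 1 to 4 minus 5 to 8 (right); grey points and bars are the median and quartiles of all genes in each of 10 bins of gene span, red diamonds are alpha and blue diamonds beta subunits. All 7 diamonds lie above the grey medians in both panels, and those of the alpha genes lie in the 2 longest bins.

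Genes around the sodium channel were read from 5 lists, whose members were chosen with earlier results of these data known. Over all gene totals 47.6% had a higher mean after kainate, the median difference was -0.0017, and 0% were called. No gene of the 5 lists was called by limma. Of the genes of the axon initial segment and node, where these channels are clustered, 15 of 16 had a higher mean, with a median of 0.055. Kcnq3, a subunit of the M-type potassium channel that shares the ankyrin anchor of the sodium channels, differed by 0.15 ± 0.12 (SE, n = 8 per group). Ank3, the ankyrin-G scaffold itself, differed by 0.11 ± 0.11, and Nfasc, the adhesion molecule neurofascin, was the 1 gene of the list with a lower mean, at -0.029 ± 0.11; these 2 were chosen after their values were seen. With the replicate number as a block, 5 of 16 had an unadjusted limma p under 0.05, as had 1094 of all 16579 totals. Without it 0 of 16 had, and 230 of all totals; none was called in either fit.

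The fibroblast growth factor homologous factors, which bind the alpha subunit's C-terminal tail and shift its inactivation, had a higher mean in 3 of 4, with a median of 0.0034. That count was 2 after quantile normalization and 1 with the length trend removed. Fgf14 differed by 0.021 ± 0.046 and Fgf13 by -0.017 ± 0.054. Among other sodium channel genes the count was 4 of 7, with a median of 0.0055 that was -0.0090 with the length trend removed. Nalcn, the sodium leak channel, differed by 0.068 ± 0.069. Other binding partners and modifiers had a higher mean in 13 of 19, with a median of 0.029. Nedd4l, a ubiquitin ligase that removes sodium channels from the membrane, differed by 0.068 ± 0.039, and Arhgap20, a GTPase-activating protein, by 0.088 ± 0.046. RNA-binding proteins and transcription factors that act on sodium channel genes had a higher mean in 12 of 14, with a median of 0.030. With the length trend removed these were 11 of 14 and 0.014. Rbfox3 and Nova2, neuronal splicing factors, differed by 0.075 ± 0.041 and 0.093 ± 0.084.

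Markers of the cell types that the dissected tissue could hold are given beside these values. Of 7 measured dentate granule cell markers 6 had a higher mean after kainate, with a median of 0.086, Prox1 at 0.23 ± 0.10 and a summed level of 12.51 to 13.01 against 12.50 to 12.84. Their median was 0.10 within replicates 1 to 4 and 0.00068 within replicates 5 to 8. Of 10 myelin markers 10 had a lower mean, with a median of -0.12 and a summed level of 17.76 to 18.22 against 17.88 to 18.30. The summed level of pan-neuronal markers ran from 17.59 to 17.72 after kainate and from 17.54 to 17.71 in controls, with 4 of 6 means higher. That of interneuron markers ran from 15.04 to 15.28 and from 15.07 to 15.25. None of these markers was called by limma. The part of dissection or cell mix in the sodium channel values was not tested.

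Totals of the alpha subunits varied together from library to library; 4 of the 21 pairs of subunits had a negative r. After the mean of each group within each set was subtracted, the 6 pairs of alpha subunit totals had a Pearson r over the 16 libraries of 0.460 to 0.849, with a median of 0.658. The highest was Scn2a with Scn3a, which adjoin each other on chromosome 3, and the next was Scn1a with Scn2a at 0.825. The 12 pairs of an alpha with a beta subunit had a median r of 0.385, with a range from -0.118 to 0.632. Scn2b tracked Scn8a with r of 0.554 and Scn1a with r of -0.118. Scn4b and Scn3b, at 0.530, were the closest of the 3 beta pairs, and Scn2b with Scn3b, at -0.187, had the lowest r of all pairs. These correlations share library, normalization and gene length, and are a description with no test. The genes most like each total by the same measure, among those with at least 100 mean normalized counts, were Bsn at r of 0.949 and Pcnx1 at 0.948 for Scn8a. They were Ubr3 at 0.974 and Sbno1 at 0.972 for Scn2a, B4galt6 at 0.943 and Luzp1 at 0.936 for Scn1a, and Cdk19 at 0.903 and Astn1 at 0.881 for Scn3a. For the beta subunits they were Cadm1 at 0.883 and Ccdc50 at 0.873 for Scn2b, Slitrk1 at 0.931 and Rundc3b at 0.923 for Scn3b, and Mepe at 0.884 and Dgki at 0.848 for Scn4b.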

How the data were processed

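RNA-seq was done on 8 kainate and 8 control libraries. Tools named per the submitters' processing notes, with no version, were RSEM, DESeq2, Trim Galore, GATK and SAMtools. Aligner, genome build and annotation were not given in the sources used here. Values per library were deposited by the authors as log2 numbers for 21698 isoforms, by an unnamed transform that from the values resembles a regularized logarithm. Their deposited table also gives a mean normalized count (a signal averaged over libraries), a log2 fold change with its score, a ratio, a p-value and an adjusted p-value. Because the values are log2 and not the counts the design allowed for, limma 3.58.1 in R 4.3.3 (trend, robust, two-sided) was applied as deposited, with no added constant, filter or normalization, with Benjamini-Hochberg adjustment over all features at a threshold of 0.05. Gene totals are the log2 of summed 2-power values over the isoforms of 16579 symbols, leaving out 51 isoforms whose names had become dates. For isoform usage, diffSplice of limma was run with Simes p-values. In 191 isoforms, none of them a sodium channel, values equalled those of another isoform. Gene spans are RefSeq's for GRCr8, matched for 14526 symbols (87.6%).

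Replicate numbers come from the sample titles. Deviations from the group means of same-numbered libraries correlated in all 8 pairs, with r from 0.127 to 0.781 against a limit of 0.1. On this basis the numbers were taken to pair the libraries. These deviations still held the difference between the replicate sets, which same-numbered libraries share. Libraries of different numbers were not compared, so the check cannot show that the number pairs animals. The pair-by-pair counts and the replicate block rest on this assumed pairing. Alternatives were the block on this number, a term for the replicate set, leaving out libraries or pairs, each set alone, other scalings and filters of 50 and 500 mean counts, and removal of the trend on gene span. The named genes are all members, each list's 2 smallest limma p-values and the 2 most alike genes; others are named as such in the text, and some that this rule picks are not reported here. The members and lists were chosen with earlier results of these data known. The methods were tested on simulated data. Those data held no difference between the replicate sets, unlike the real libraries, so the test does not give the power of the fits here. Depth is unknown, so precision rests on the 8 libraries per group. Subunit proteins were not analysed here.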

Additional observations from a re-analysis of the deposited data

Results flagged for a closer look

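Of 38 groups of 8 sodium channel values, 4 held a library past Dixon's critical value at the 95% level. Compared with that value was the gap to the nearest neighbour, as a share of the group's range. The groups are isoforms, totals and shares built from the same values, and each mixes both replicate sets. The usual rate of 1 in 20 therefore does not apply to them. Scn3a ENSRNOT00000081401 was 10.72 in kainate replicate 1, and the next highest kainate library was 10.21. Scn3b was 15.23 in control replicate 2, with the next lowest control at 15.35, and 15.56 in kainate replicate 3, with the next highest kainate library at 15.42. The share of Scn8a ENSRNOT00000008160 in the Scn8a total was 23.6% in control replicate 2, where the next lowest control was 30.3%. Control replicate 2 thus stood apart in 2 of the 4. The causes were not tested.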

How the results depend on the processing

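No sodium channel isoform or total, and no other isoform or gene total, was called for kainate under any alternative run. Members with a higher mean were 9 to 11 isoforms and 6 to 7 totals. With the replicate block the difference of the Scn8a total was 0.12 ± 0.050 (SE) and of Scn2b 0.079 ± 0.029, and the block changed no call. Isoforms at an unadjusted limma p under 0.05 numbered 325, 1330 with the block, 1044 with a term for the set, 1090 in replicates 5 to 8 alone, 183 with a filter of 50 mean counts and 70 with a filter of 500. With single libraries left out, the Scn8a total ran from 0.073 to 0.18, Scn2b from 0.061 to 0.11, Scn2a from 0.032 to 0.10, Scn1a from 0.0091 to 0.070, Scn3a from 0.028 to 0.081, Scn3b from 0.0097 to 0.042 and Scn4b from 0.059 to 0.11. Isoform ENSRNOT00000080923 of Scn8a ran from 0.054 to 0.18, ENSRNOT00000008160 from 0.11 to 0.20, and ENSRNOT00000087242 of Scn2a from 0.014 to 0.072. Directions turned as follows, and the cause was not tested. Scn1a ENSRNOT00000083552 was -0.010 with kainate replicate 1 left out, -0.0035 with control 2 or control 7 left out, -0.0013 with pair 8 left out, -0.0049 in replicates 5 to 8, and -0.00086 with the length trend removed, with or without the replicate block; its highest value was 0.058, with kainate replicate 6 left out. In replicates 1 to 4 alone, Scn1a ENSRNOT00000091259 was -0.051, the Scn1a total -0.0020 and Scn3a ENSRNOT00000006646 -0.054; the last was -0.010 without kainate replicate 4 and -0.0013 without control replicate 7, and with libraries left out it reached 0.055, without both of replicate 1. Scn3b, isoform and total, was -0.017 in replicates 5 to 8 alone. Fgf14 was -0.00029 without control replicate 8 and -0.015 with the length trend removed, with or without the block. Fgf13 was 0.0030 without kainate replicate 1, 0.0031 without kainate replicate 2 and 0.00018 without both of replicate 1, and -0.056 without control replicate 2. The Scn3b difference between the sets was -0.014 and -0.0024 without kainate replicate 3 or 7, -0.0011 without control replicate 3, -0.027 and -0.0016 without both of replicate 3 or 7, and -0.016 with a common median, and with libraries left out it reached 0.037, without both of replicate 2. Sodium channel isoforms called between the sets numbered 5 to 7. Genes called in isoform usage for kainate were 1 without control replicate 1, 5 in replicates 5 to 8 alone and 0 otherwise, and no sodium channel gene was among them. The Scn8a usage call between the sets, 0.0461, also ended without both libraries of replicate 1, 2, 5, 6, 7 or 8, with limma adjusted p between 0.0513 and 0.195.

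Limits are these. The read depth is unknown, and the compressed log2 scale understates differences of weak isoforms. Isoform values rest on the authors' estimates. The replicate sets have no stated meaning, and the cell mix of the dissected tissue was not measured apart from marker RNA.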
